A study of Homo sapiens with 12 samples.

Results

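The members are the probes whose levels on all 9 construct arrays lay above, or all below, the levels on the 3 control arrays, in cells labelled A549 that received a plasmid for part or all of SEMA5A. Members numbered 893 of 18728 detected probes, 453 above and 440 below. They were picked by the mean of the 3 construct groups against the control group, over all detected probes, together with this separation. The construct groups were SEMA5A_ICD (the intracellular domain), SEMA5A_ECD (the extracellular domain) and SEMA5A_Full (the full-length protein), set against SEMA5A_Empty (a control plasmid), with 3 single-colour Illumina bead arrays each and 12 in all. RNA was taken 24 h after transfection with the reagent jetPRIME, which all 4 groups received, as they did a plasmid. A549 is a widely used epithelial line derived from a lung tumour. The labels do not give the promoter, backbone, size or dose of any plasmid. Replicates are numbered, but separate cultures are not stated, and p-values therefore rest on variation among arrays that could be technical.

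Semaphorins are a family of secreted and membrane proteins best known as guidance cues for axons, and SEMA5A is a member that spans the membrane, with a semaphorin domain and thrombospondin repeats outside the cell and a short tail inside it. Plexin-B3 is a known receptor of SEMA5A, and MET is a receptor kinase that plexin-B3 can associate with. Many of the members that rose are genes of the type I interferon response, which cells switch on when sensors such as RIGI and IFIH1 find foreign RNA or when cytosolic DNA is sensed. The sensors act through IRF3 and IRF7 to start transcription of interferon beta, and secreted interferon then acts through its receptor, JAK kinases and the DNA-binding factor IRF9. IRF9 binds, with its partners, the interferon-stimulated response element (ISRE) in front of its target genes, and IRF3 can bind the same element at some of them directly.

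Of 47323 probes, 18659 to 20366 an array exceeded background, taken as a detection p-value under 0.05 against the array's negative controls. Log2 levels correlated at 0.988 to 0.995 between arrays of the same group and at 0.982 to 0.992 between arrays of different groups. The 3 Full arrays were spread out on the second principal component, at 13.1, -0.40 and 24.3 for replicates 1, 2 and 3. Both SEMA5A probes were below background on all 12 arrays, with a lowest detection p of 0.274, so the array does not check which arrays carried a construct. PLXNB3 was also below background on every array, while MET was above it on all 12. The tissue label was set against 15 markers of A549 and lung epithelium. KRT8, KRT18 and NQO1 were above background on all 12 arrays, and 7 markers were on none, among them KRT19, CDH1, AKR1B10 and AKR1C1, which A549 is known to express. CD68 was the only leukocyte marker on all 12 arrays, of 10 measured, and fibroblast, endothelial and red cell markers had 0 on all 12.

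More of the large changes were increases than decreases. Of the 453 probes above, 279 also passed the limma test of the same contrast at an adjusted p under 0.05, as did 258 of the 440 below, while 174 and 182 were separated without passing. Over all detected probes 2.77% were called higher and 2.72% lower, 2.42% lay above and 2.35% below, and 1.49% and 1.38% met both conditions. The rule used this contrast, so these shares are a description and the test of it supports nothing on its own. Members past the test had a median log2 difference of 0.48 when higher and -0.40 when lower, where the median over all detected probes was -0.00067. At least 1.5-fold were 106 of the higher and 23 of the lower ones, and 57 higher and 0 lower ones reached 2-fold. Detection throughout any 1 group admitted a probe, and 3 of the 4 groups were constructs. That let in 271 probes below background on every Empty array and 6 below it on every construct array. Above background on all 12 arrays were 82 of the 106 and 21 of the 23. In each construct's own comparison with Empty, which share the 3 Empty arrays, 202 of the 279 higher members passed with ICD, 238 with ECD and 111 with Full, against 3.19%, 5.77% and 0.769% of all probes. For the 258 lower members these numbers were 198, 191 and 26, against 3.32%, 5.55% and 0.304% of all probes called lower. The members were chosen by the mean of these comparisons and by separation, so shares above those of all probes follow from that choice. Without Empty replicate 2 the separated and called probes numbered 185 higher and 93 lower, and without Empty replicate 3 they numbered 177 and 99. Without Full replicate 2 or Full replicate 3 the lower ones numbered 405 and 411, and with all 9 construct arrays treated as 1 group, 86 were higher and 51 lower.

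**Figure D1:**
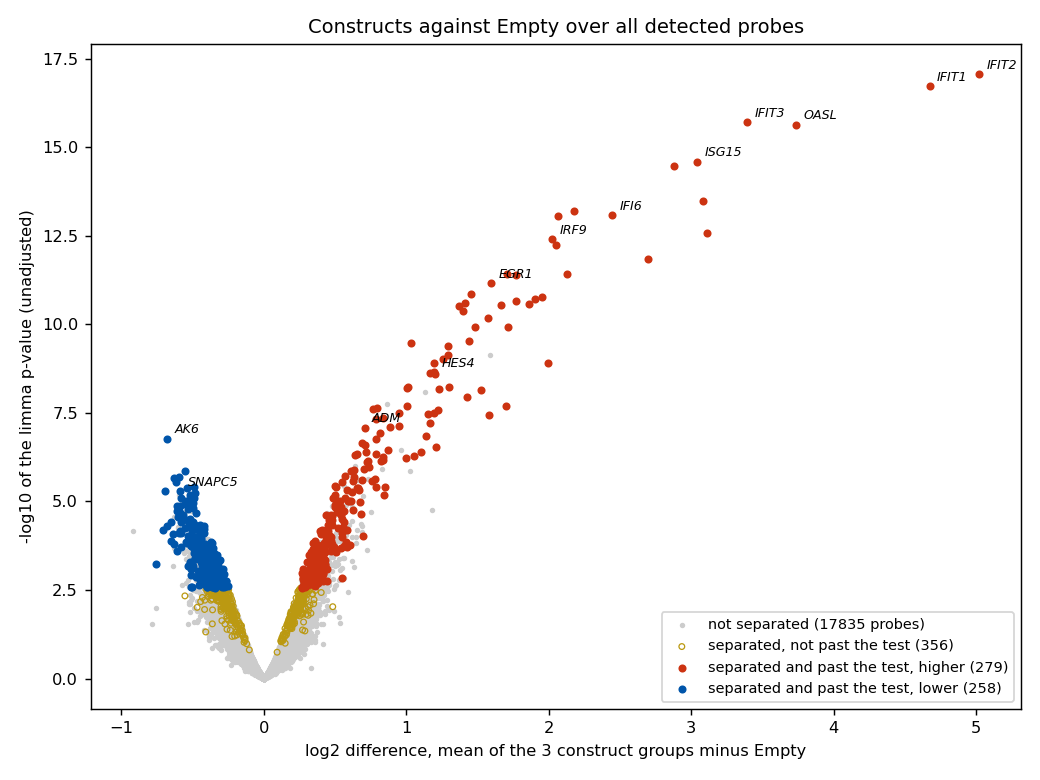
Each point is 1 of 18728 detected probes, with the log2 difference between the mean of the 3 construct groups and Empty on the x axis and the -log10 of the unadjusted limma p on the y axis. The 279 higher members past the test (red) extend to 5.02, and the 258 lower ones (blue) to -0.75, with 356 separated probes that did not pass drawn as open circles.

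The largest log2 differences of all detected probes were those of IFIT2 and IFIT1, of the IFIT family, whose proteins bind foreign RNA and block its translation. IFIT2 lay at 9.84, 10.15 and 11.56 (lowest, median and highest log2 intensity) on the 9 construct arrays, against 5.41, 5.47 and 5.51 on the 3 Empty arrays. The groups were far apart, with a log2 difference of 5.02 ± 0.10 (SE), or 32.4-fold, and a limma adjusted p of 1.6e-13. IFIT1 lay at 10.06, 10.69 and 12.08 on the construct arrays and at 6.30, 6.32 and 6.13 on Empty arrays, with a log2 difference of 4.67 ± 0.10, or 25.5-fold (limma adjusted p = 1.8e-13). ECD arrays were the highest of the 9 for both genes. That each of the 9 was above every Empty array is what the rule asks of a member. IFIT3 lay at 6.98, 7.85 and 9.02 on construct arrays, against 4.47, 4.64 and 4.65 on Empty arrays, where it was below background. Its increase is therefore a bound of at least 9.82-fold, which sets the mean of the construct arrays against the higher, per Empty array, of the probe's own level and the lowest level of any probe above background there. IFIT5, above background on 1 of the 3 Empty arrays, had a smaller difference of 1.01 ± 0.09 (limma adjusted p = 7.7e-06). Thus 4 of 4 tested IFIT genes were members past the test, as were 198 of 10912 named genes on the higher side. With or without separation, 3.33% of the named genes were called higher by the same fit. Other probes of IFIT1 and IFIT3 gave less, with log2 differences of 0.85 for 1 probe of IFIT1 and of 0.55 and 3.11 for 2 probes of IFIT3.

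To show what the promoters of the strongly raised genes share, those of the 6 members with the largest increase that have one in the RefSeq table are printed here, on GRCh38.p14, each from 250 bases before the start of the gene to 50 after it and written 5′ to 3′ on the strand of the gene. Capitals mark the ISRE core, which is GAAA, any 2 bases (NN) and GAAA again, searched on both strands.
IFIT1: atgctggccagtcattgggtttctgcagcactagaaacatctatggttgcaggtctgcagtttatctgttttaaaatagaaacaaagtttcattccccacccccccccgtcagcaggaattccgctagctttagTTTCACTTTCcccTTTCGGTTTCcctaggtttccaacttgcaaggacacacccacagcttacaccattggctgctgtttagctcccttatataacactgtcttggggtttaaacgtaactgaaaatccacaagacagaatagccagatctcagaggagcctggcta
IFIT3: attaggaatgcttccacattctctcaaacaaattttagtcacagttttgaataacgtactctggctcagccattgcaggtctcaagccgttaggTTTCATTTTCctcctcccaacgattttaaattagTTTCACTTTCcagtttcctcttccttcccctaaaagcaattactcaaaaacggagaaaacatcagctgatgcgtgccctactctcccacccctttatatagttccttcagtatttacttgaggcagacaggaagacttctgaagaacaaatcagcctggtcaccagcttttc
IFI44: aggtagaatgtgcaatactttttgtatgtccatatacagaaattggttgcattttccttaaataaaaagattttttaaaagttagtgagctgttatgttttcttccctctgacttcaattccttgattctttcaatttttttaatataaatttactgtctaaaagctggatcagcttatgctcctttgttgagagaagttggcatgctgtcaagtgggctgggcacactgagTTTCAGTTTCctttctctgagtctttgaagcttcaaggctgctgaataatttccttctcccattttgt
ISG15: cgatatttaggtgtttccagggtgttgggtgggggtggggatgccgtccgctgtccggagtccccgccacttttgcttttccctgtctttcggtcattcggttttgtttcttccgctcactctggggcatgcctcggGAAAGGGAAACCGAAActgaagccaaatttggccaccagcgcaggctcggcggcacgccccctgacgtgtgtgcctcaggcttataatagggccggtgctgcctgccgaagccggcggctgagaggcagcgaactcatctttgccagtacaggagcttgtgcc
HERC5: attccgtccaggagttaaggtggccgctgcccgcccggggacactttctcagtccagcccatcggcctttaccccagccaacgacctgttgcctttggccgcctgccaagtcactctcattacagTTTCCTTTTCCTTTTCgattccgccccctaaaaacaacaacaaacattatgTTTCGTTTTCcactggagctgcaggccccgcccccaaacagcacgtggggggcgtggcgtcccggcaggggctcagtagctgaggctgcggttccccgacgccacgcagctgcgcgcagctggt
IFI6: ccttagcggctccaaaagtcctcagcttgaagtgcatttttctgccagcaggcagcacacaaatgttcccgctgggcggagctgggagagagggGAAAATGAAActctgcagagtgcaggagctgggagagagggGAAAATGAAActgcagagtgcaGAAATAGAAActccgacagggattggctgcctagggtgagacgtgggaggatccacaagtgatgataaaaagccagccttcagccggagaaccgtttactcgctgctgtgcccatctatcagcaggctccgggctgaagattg
These lie at chr10:89392373-89392672 (+) for IFIT1, chr10:89327747-89328046 (+) for IFIT3, chr1:78649539-78649838 (+) for IFI44, chr1:1013247-1013546 (+) for ISG15, chr4:88456869-88457168 (+) for HERC5 and chr1:27672143-27672442 (-) for IFI6. The first base of each core lay at -116 and -103 from the start in IFIT1, at -156 and -122 in IFIT3, at -18 in IFI44, at -113 and -107 in ISG15, at -125, -119 and -74 in HERC5, and at -156, -115 and -93 in IFI6, so that cores overlap in ISG15 and in HERC5. IFIT3 and IFI44 have 2 promoters in the table, of which the one with more cores is shown, and a gene counts as holding a motif when any of its promoters does. Among the 198 named higher members past the test, 152 had a promoter in the table and 33 of these held the core (21.7%), and among the 41 that were at least 2-fold higher it was 19 of 33 (57.6%). The core stood in 2 of 80 promoters of lower members past the test (2.5%). It stood in 342 of 8849 of all tested named genes (3.86%) and in 3.57% of the 35116 promoters of the table. A match is a stretch of letters, not evidence of binding.

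Some genes of RNA sensing and those of the OAS family were among the higher members as well. OASL, a member of the oligoadenylate synthetase family that enhances RIGI signalling, lay at 7.18, 7.84 and 9.10 on the construct arrays, against 4.29, 4.32 and 4.39 on Empty arrays, below background there, so the increase is at least 10.5-fold (limma adjusted p = 1.1e-12). IFIH1, the sensor of long double-stranded RNA, lay at 8.00, 8.51 and 10.13 with the constructs, against 6.72, 6.74 and 6.68 with Empty. The separation was wide for IFIH1, at 2.13 ± 0.11 (limma adjusted p = 4.4e-09). RIGI, the sensor of short RNA with a 5′ triphosphate, lay at 5.56, 6.06 and 7.51 on construct arrays and at 4.45, 4.66 and 4.42 on Empty arrays, below background, and its increase was at least 3.23-fold. EIF2AK2, the kinase PKR that stops translation when double-stranded RNA is present, rose by 1.15 ± 0.11, and ADAR, which edits double-stranded RNA, by 0.82 ± 0.09. These 4 were the members past the test among 14 tested sensors and adaptors, whose median difference was 0.15. Of all 10912 named genes, 198 were separated and called higher. OAS1, OAS2 and OAS3, which make the 2-5A signal that activates RNase L, and OASL were members past the test, 4 of 4 tested genes of that family. OAS3 had a log2 difference of 1.71 ± 0.11 and OAS1 one of 0.58 ± 0.08. OAS2 was below background on every Empty array and rose at least 2.26-fold in the mean of the constructs. Its bounds were 1.05-fold for ICD, which was not called in its own comparison, 6.76-fold for ECD and 1.63-fold for Full. A second OASL probe gave 0.82. The OAS1 probe used had 0.28 for ICD, which was not called, 0.96 for ECD and 0.51 for Full. In the mean, 2 further probes of OAS1 gave 0.24 and 0.49, and neither was separated. Their differences were 0.01 and -0.04 for ICD, 0.76 and 1.33 for ECD, and -0.06 and 0.18 for Full.

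ISG15 is a ubiquitin-like protein that is attached to other proteins. Genes of its attachment and removal also rose in the mean of the constructs. ISG15 itself lay at 10.97, 11.98 and 13.01 on construct arrays, against 8.80, 8.95 and 9.02 on Empty arrays, a difference of 3.04 ± 0.09, or 8.23-fold (limma adjusted p = 9.5e-12). HERC5, the main ligase for ISG15 in human cells, lay at 10.59, 10.82 and 12.05 with the constructs and at 8.34, 8.33 and 8.22 with Empty (2.88 ± 0.09, 7.38-fold). The ICD arrays of ISG15 were nearest to Empty at 11.11, 10.97 and 11.22, and the rule itself excludes overlap with Empty for both genes. USP18, which removes ISG15 and dampens interferon signalling, lay at 5.52, 6.58 and 8.00 with the constructs, against 4.77, 4.74 and 4.61 with Empty, where 2 of 3 arrays were above background. HERC6 rose by 1.05 and the conjugating enzyme UBE2L6 by 0.89 on the log2 scale. The ICD difference of HERC6 was 0.43 and was not called. All 7 tested genes of this list passed the test, where 3.33% of all named genes were called higher, and 5 of the 7 were separated. In the comparisons of single constructs with Empty, 3 of the 7 were called higher with ICD, 7 with ECD and 6 with Full. Those counts stand beside 429, 770 and 106 of 10912 named genes. TRIM25 (0.64) and the activating enzyme UBA7 (at least 1.06-fold, below background with Empty) were called without separation of all arrays.

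Effectors that act on viruses at other steps made up the largest list, and 33 of its 43 tested genes were called higher and 0 lower, 20 of them with separation. Over all named genes 3.33% were called higher and 1.63% lower. IFI44, an interferon-induced cytoplasmic protein, lay at 7.43, 8.26 and 9.53 on construct arrays, against 5.51, 5.41 and 5.13 on Empty arrays (3.08 ± 0.11, 8.48-fold, limma adjusted p = 8.8e-11). IFI6, which restrains flaviviruses at the endoplasmic reticulum, lay at 10.41, 11.38 and 12.90 with the constructs and at 9.13, 8.94 and 9.30 with Empty (2.45 ± 0.09, 5.45-fold). Both were clear of Empty on all 9 construct arrays, as the rule requires. IFITM1, which blocks fusion of viruses with the cell membrane, lay at 5.52, 6.69 and 7.77 with the constructs, against 4.65, 4.52 and 4.57 with Empty, below background, an increase of at least 3.84-fold. HELZ2, a helicase and coactivator, had a difference of 1.95 ± 0.11. The ADP-ribosyltransferase genes of the list moved the same way, with PARP9 at 1.77 ± 0.10, PARP10 at 1.70 ± 0.16, PARP12 at 1.42 and PARP14 at 1.00. PARP10 was above background on 1 of the 3 Empty arrays. SAMD9, a restriction factor for poxviruses, rose by 1.58 ± 0.15. The exonuclease gene ISG20, SP110 and the antibody receptor gene TRIM21 rose by 1.46, 1.37 and 1.20. DDX60, a helicase that aids RNA sensing, was below background with Empty and rose at least 2.65-fold. MX1, a dynamin-like GTPase that traps viral particles, was below background on the ICD as well as the Empty arrays, and its ICD levels of 4.47, 4.50 and 4.44 lay just above Empty levels of 4.42, 4.29 and 4.43. IFI44L was below background on every Empty array and above it on 1 of 3 ICD arrays. In the mean of the constructs it rose at least 1.96-fold, with bounds of 0.95-fold for ICD, 5.17-fold for ECD and 1.54-fold for Full. The ICD bound shows no rise, the ICD comparison was not called, and a second probe gave 0.11. IFI27, PLSCR1 and IFITM3 passed the test without separation (1.59, 1.03 and 0.66), with ICD differences of 0.40, 0.16 and 0.02.

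Fewer genes of the signalling chain that carries the interferon signal were members. IRF9 lay at 9.00, 9.89 and 10.72 with the constructs, against 8.00, 7.71 and 7.76 with Empty (2.02 ± 0.09, 4.07-fold, limma adjusted p = 6.2e-10). IRF7, the factor that amplifies interferon transcription, lay at 7.04, 8.25 and 9.06 with the constructs and at 6.23, 6.50 and 6.32 with Empty (1.77 ± 0.09). These were the 2 separated genes among 6 called higher and 0 called lower of 19 tested receptor, JAK-STAT and IRF genes. The shares over all named genes were 3.33% and 1.63%. IFI35, IRF1, BATF2 and JAK2 passed without separation, at 0.87, 0.68, 0.45 and 0.29. Of the interferons themselves, IFNB1 exceeded background on all ECD arrays and on 0 of the remaining 9. Its ECD levels were 5.53, 5.95 and 5.65, against 4.26, 4.27 and 4.28 with Empty, at least 2.04-fold higher, and it was not separated over the 3 constructs. IFNA1, IFNL1, IFNL2 and IFNL3 were below background on all 12 arrays.

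Genes of antigen presentation by class I molecules and of cytokine signalling gave smaller changes. TAP1, a subunit of the transporter that carries peptides to class I molecules, lay at 8.61, 9.25 and 10.42 with the constructs, against 8.03, 8.14 and 8.23 with Empty (1.30 ± 0.09). HLA-E, a non-classical class I molecule, rose by 0.79 ± 0.09, TAP2 by 0.62 ± 0.09 and HLA-F by 0.36 ± 0.09. Of 17 tested genes 6 were called higher and 0 lower, and 4 were separated, while a second TAP2 probe gave 0.21. In the comparisons of single constructs with Empty, TAP2 was not called for Full (0.27), and HLA-F was called for ECD (0.54) only. Over all named genes the shares called were 3.33% higher and 1.63% lower. HLA-F lost its call without Empty replicate 1, 2 or 3. CCL5, a chemokine that attracts T cells, lay at 6.17, 6.99 and 7.49 on construct arrays, against 5.62, 5.82 and 5.98 on Empty arrays (1.17 ± 0.12, limma adjusted p = 1.9e-05). CXCL10, a chemokine induced by interferons, was above background on 8 of the 9 construct arrays and on no Empty array. Its increase in the mean of the constructs was at least 1.47-fold. The bounds were 1.03-fold for ICD, 2.5-fold for ECD and 1.23-fold for Full, and only ECD was called in its own comparison. NFKBIZ and NFKBIA, which encode regulators of NF-kB that it also induces, rose by 0.57 ± 0.09 and 0.42 ± 0.09, and a second NFKBIZ probe went the other way at -0.27. CCL2, a chemokine for monocytes, went down instead. It lay at 4.75, 4.93 and 5.20 on construct arrays, against 5.45, 5.81 and 5.45 on Empty arrays, and fell by 0.59 on the log2 scale, with differences of -0.72 for ICD, -0.55 for ECD and -0.48 for Full. Of 20 tested cytokine and NF-kB genes 6 were called higher and 1 lower.

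Over the 6 interferon lists together, 58 of 91 tested genes were called higher and 0 lower by limma, and 39 were separated and called. At an unadjusted p under 0.05 these numbers were 64 higher and 1 lower. Their median difference was 0.64, or 0.58 with the 15 genes that were below background on every Empty array set at their bounds, beside 0.02 over 10912 named genes, of which 3.33% were called higher and 1.63% lower. The constructs were unlike, with medians of 0.22 for ICD, 1.10 for ECD and 0.57 for Full. In their own comparisons with Empty, 31, 66 and 44 of the 91 genes were called higher, beside 429, 770 and 106 of 10912 named genes. Conversely, 54 of the 279 higher members past the test were probes of 41 genes on these lists, and 0 of the 258 lower ones were. In bulk RNA such as this, a change of level in every cell and a change in the share of responding cells cannot be told apart. The lists were drawn up with earlier results of these data known, so their direction is no independent evidence.

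**Figure D2:**
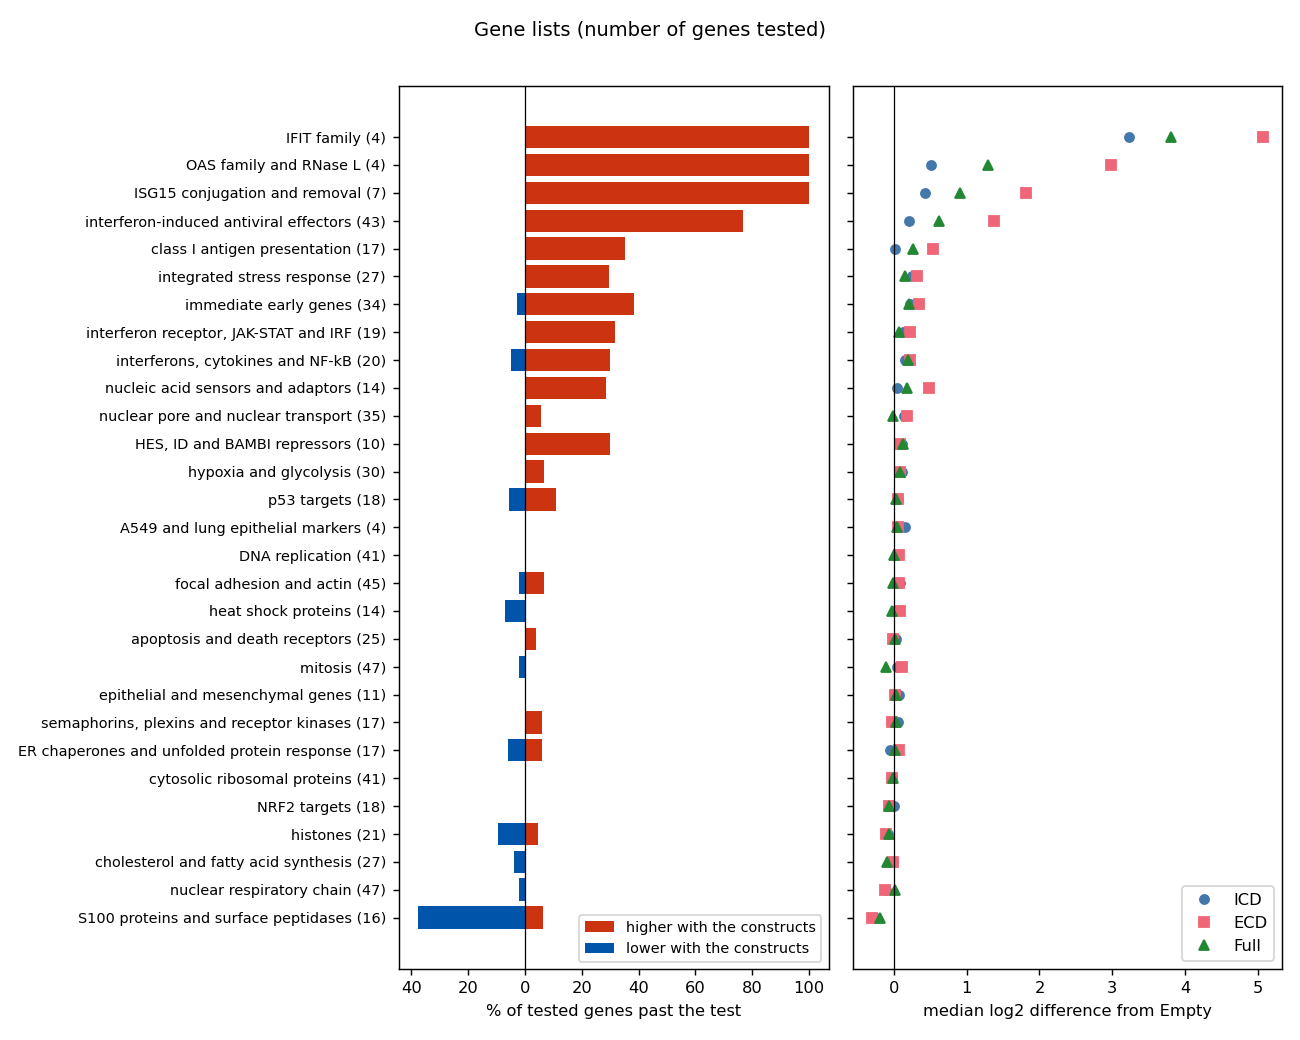
The left panel gives the percentage of tested genes of each list that passed the test as higher (red, right of 0) or lower (blue, left of 0) with the constructs, and the right panel the list's median log2 difference from Empty for ICD, ECD and Full. The IFIT, OAS and ISG15 lists reach 100% higher, and over 10912 named genes the shares were 3.33% higher and 1.63% lower.

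Outside the interferon lists, several early-response transcription factors rose. EGR1, a zinc finger factor induced by growth factors and stress, lay at 7.41, 8.70 and 9.07 with the constructs, against 6.94, 6.77 and 6.80 with Empty (1.60 ± 0.08, 3.02-fold, limma adjusted p = 7.2e-09). ATF3, a stress-induced repressor, lay at 5.32, 6.37 and 6.90 with the constructs and at 5.15, 4.98 and 4.99 with Empty (1.17 ± 0.09). The lowest of the 9 arrays of both genes were ICD arrays, with mean differences of 0.68 for EGR1 and 0.48 for ATF3. KLF4, one of the factors of cell reprogramming, lay at 8.30, 8.52 and 9.03 with the constructs, against 7.78, 7.78 and 7.86 with Empty (0.79 ± 0.07). CCN1, a secreted matrix protein, and JUNB, a part of AP-1, rose by 0.63 ± 0.08 and 0.42 ± 0.09. In all 13 of 34 tested early genes were called higher and 1 lower, with 8 higher and 1 lower also separated, and the list's median was 0.25. The lower one was SPRY4, an inhibitor of growth factor signalling (-0.28). Among all named genes 3.33% were called higher and 1.63% lower. HES4, a repressor of the HES family, lay at 8.49, 9.24 and 9.66 on construct arrays, against 7.93, 7.97 and 7.98 on Empty arrays (1.20 ± 0.09, 2.3-fold). BAMBI, a decoy receptor of the TGF-beta family, and BHLHE40, a repressor tied to the clock and to hypoxia, rose by 0.69 ± 0.08 and 0.69 ± 0.09. They were 3 of 10 tested genes of the HES, ID and BAMBI list, and 0 of these were called lower.

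Some stress genes were members too. PMAIP1, which encodes the BH3-only protein NOXA and can be induced by IRF3 as well as by p53, lay at 9.25, 9.73 and 10.31 with the constructs, against 8.60, 8.46 and 8.49 with Empty (1.30 ± 0.11, 2.47-fold, limma adjusted p = 2.6e-06). It was the only one of 25 tested apoptosis genes called in either direction. PPP1R15A, which encodes the phosphatase subunit GADD34 that restores translation, rose by 0.66 ± 0.08, and SLC3A2 and SLC7A5, the 2 chains of an amino acid transporter, by 0.53 ± 0.08 and 0.38 ± 0.09. WARS1, a tRNA synthetase that interferon gamma also induces, rose by 0.44 ± 0.09. With DDIT3, ASNS, PSAT1 and GARS1, which were not separated (0.52, 0.43, 0.33 and 0.31), 8 of 27 tested genes of the integrated stress response were called higher and 0 lower. The shares over all named genes were 3.33% higher and 1.63% lower. The ICD difference of DDIT3 was -0.15, and those of ECD and Full were 0.95 and 0.77. XBP1, the factor spliced in the unfolded protein response, rose by 0.43 ± 0.10, and PPIB, an isomerase of the endoplasmic reticulum, fell by 0.53 on the log2 scale without separation. SLC7A5 kept its call in 8 of the 12 fits with 1 array left out, losing it without ECD replicate 1 or 3 and without Empty replicate 2 or 3. XBP1 lost its call without Empty replicate 2 or 3, and WARS1 without Empty replicate 1.

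**Figure D3:**
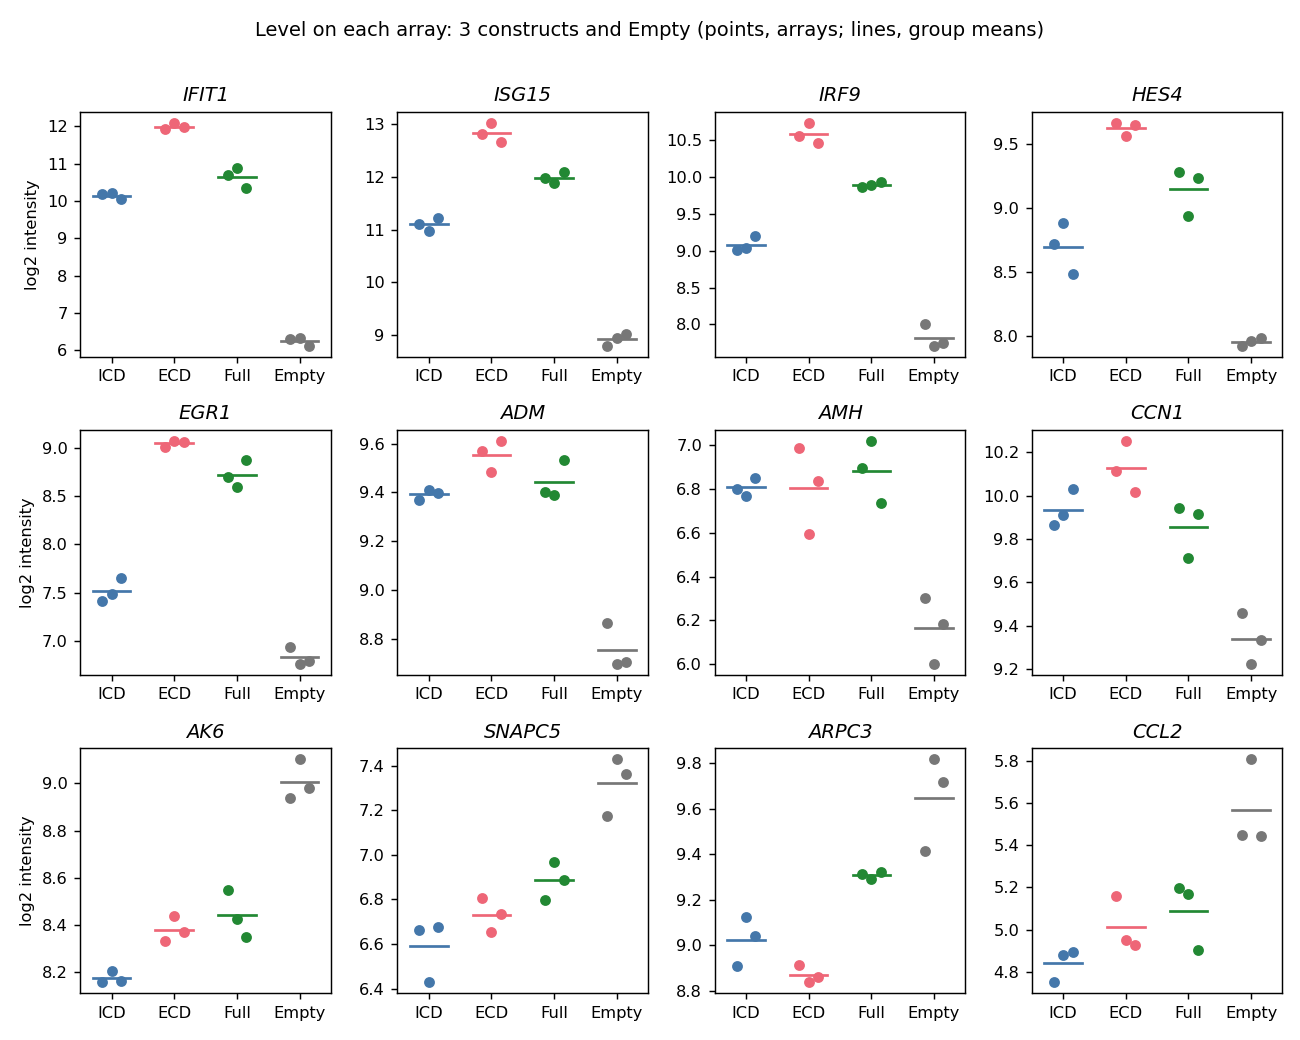
Each panel gives the log2 intensity of 1 gene on the 12 arrays, with ICD, ECD and Full left of Empty, points for arrays and lines for group means. IFIT1, ISG15, IRF9, HES4 and EGR1 step up from ICD through Full to ECD, ADM, AMH and CCN1 sit at about 1 level in the 3 construct groups, and AK6, SNAPC5, ARPC3 and CCL2 sit below all 3 Empty arrays.

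The construct groups differed from one another at a larger share of the higher members than of the lower ones. This was asked with a limma F test of ICD, ECD and Full in the same fit, which 14.2% of all detected probes passed. It compares the construct means alone, while its estimate of the spread comes from all 4 groups, Empty included. Of the 279 higher members past the test of the mean, 132 passed the F test (47.3%), against 29 of the 258 lower ones (11.2%). The share of the lower ones was near the 14.2% of all probes. Over all separated probes these shares were 29.1% and 6.59%, and since separation from Empty chose the members, they are a description. ECD was highest in 107 of the 132 and ICD lowest in 91. In pairwise contrasts ECD exceeded ICD at IFIT1 by 1.85 ± 0.12 (SE) on the log2 scale (limma adjusted p = 1.6e-07) and at IFI6 by 2.27 ± 0.11 (1.5e-08), and Full exceeded ICD at ISG15 by 0.88 ± 0.11 (0.0015). Over the 453 probes above Empty, ECD exceeded ICD at 89 and lay below it at 2 (1.13% and 0.529% of all probes), Full exceeded ICD at 38 and lay below it at 21 (1.98% and 2.7%), and Full exceeded ECD at 2 and lay below it at 118 (7.75% and 10%). Of the 91 interferon-list genes, 67 passed the F test and ECD was highest in 66. Of the 29 lower members that passed it, Full was highest, that is nearest to Empty, in 23. The F test count depended on single arrays, with 1229 probes called over the whole array without Full replicate 3 and 3627 without Full replicate 2.

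The 6 members with the most even increase across the constructs, by a rule that asks for a change of at least 0.4, were AMH, TBX1, NTM, USF1, ABHD2 and AJUBA, and 0 of them are on the interferon lists. ADM, the peptide hormone adrenomedullin and a target of hypoxia signalling, lay at 9.37, 9.41 and 9.40 with ICD, at 9.57, 9.48 and 9.61 with ECD and at 9.40, 9.39 and 9.53 with Full, against 8.86, 8.70 and 8.71 with Empty. Full arrays overlapped the ICD and the ECD arrays, while the rule itself excludes overlap with Empty. The difference of ADM was 0.71 ± 0.07 (limma adjusted p = 2.4e-05), with an F test adjusted p of 0.38. AMH, anti-Müllerian hormone, lay at 6.80, 6.77 and 6.85 with ICD, at 6.99, 6.60 and 6.83 with ECD and at 6.90, 7.02 and 6.74 with Full, against 6.30, 6.00 and 6.18 with Empty (0.67 ± 0.10, F test adjusted p = 0.83). USF1, a helix-loop-helix transcription factor, rose by 0.55 ± 0.09 with 0.58, 0.57 and 0.49 for ICD, ECD and Full, and a second USF1 probe gave 0.07. TBX1, a developmental T-box factor, NTM, a neural adhesion protein, AJUBA, an adaptor at cell contacts, and ABHD2, a lipid hydrolase, rose by 0.43, 0.42, 0.42 and 0.42. A second probe of TBX1 gave 0.09 and one of ABHD2 0.17, neither called, and the calls of TBX1 and ABHD2 were lost without background correction and on the log2 values that the authors deposited. That of ABHD2 was also lost under median scaling, with no detection filter, and with ICD or ECD not averaged. A p that misses the threshold does not show that the constructs act alike, and for ADM the ECD minus ICD difference was 0.16 with an SE of 0.09. H4C3, a histone H4 gene, rose by 0.57 ± 0.09. BHLHE40 and ADM were the 2 called of 30 tested hypoxia and glycolysis genes, where 3.33% of all named genes were called higher. The calls of TBX1 and NTM were lost without Empty replicate 2 or 3 and that of AJUBA without Empty replicate 1 or 2, while ABHD2 kept its call in 7 of the 12 fits with 1 array left out, losing it without ICD replicate 1 or 2 and without each Empty array.

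**Figure D4:**
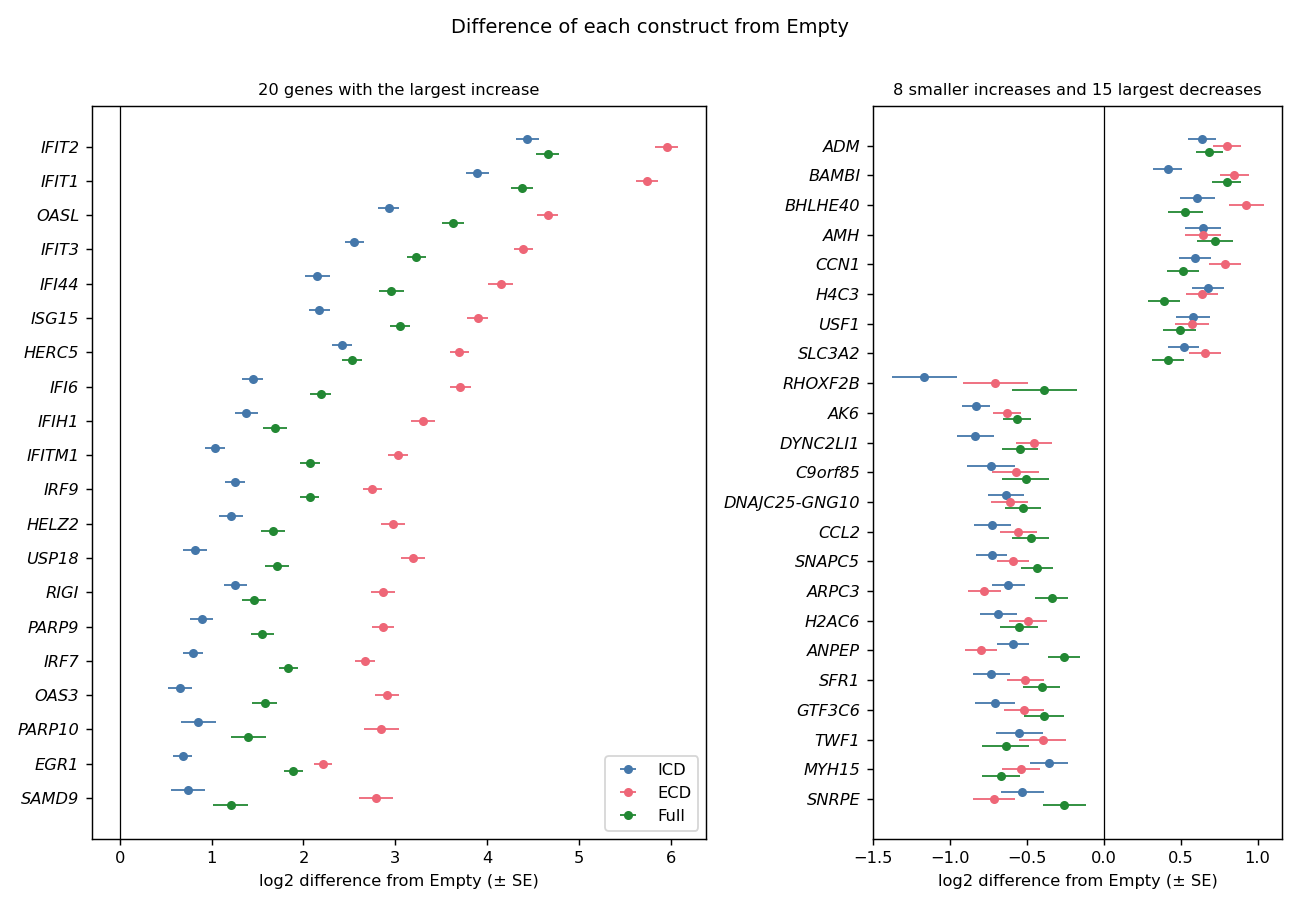
Points are the log2 difference of ICD, ECD and Full from Empty with its SE, for the 20 genes with the largest mean increase (left) and for 8 smaller increases and the 15 largest decreases (right). In the left panel ECD lies farthest to the right for all 20 genes, from 5.96 for IFIT2 to 2.21 for EGR1, and in the right panel the 3 constructs lie closer together.

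Lower members changed by less and fell on few of the lists. AK6, a nuclear adenylate kinase, lay at 8.16, 8.35 and 8.55 on construct arrays, against 8.94, 9.10 and 8.98 on Empty arrays. All 9 were below all 3, as the rule asks of a member. The log2 difference was -0.68 ± 0.07 (limma adjusted p = 4.7e-05). Its call held in each of the 12 fits with 1 array left out. SNAPC5, a subunit of the complex that starts transcription of small nuclear RNAs, lay at 6.43, 6.74 and 6.97 with the constructs and at 7.17, 7.43 and 7.36 with Empty (-0.59 ± 0.08). ARPC3, a subunit of the Arp2/3 complex that branches actin, lay at 8.84, 9.04 and 9.32 with the constructs, against 9.41, 9.81 and 9.72 with Empty (-0.58 ± 0.09). Empty replicate 1 was the nearest Empty array to the constructs for AK6, SNAPC5 and ARPC3. DYNC2LI1, a light intermediate chain of the dynein that works in cilia, differed by -0.61 ± 0.10, and the readthrough gene DNAJC25-GNG10 by -0.59 ± 0.10. TWF1, an actin monomer binder, differed by -0.53 ± 0.12, SNRPE, a core spliceosome protein, by -0.50 ± 0.11, and GTF3C6, a subunit of the factor TFIIIC, by -0.54 ± 0.11. RHOXF2B had the largest fall, -0.75 ± 0.17, while another probe of it gave 0.06, and its near-identical paralog RHOXF2 makes its probes uncertain. Other probes of SFR1 and GTF3C6 gave -0.02 and -0.15, beside -0.55 and -0.54 for those used. The myosin heavy chain gene MYH15 differed by -0.52 ± 0.10, a call lost without Empty replicate 3. The 6 most even decreases of at least 0.4 were those of AK6, C9orf85, DNAJC25-GNG10, H2AC6, CBX1 and ITPRID2. Among them CBX1, a heterochromatin protein that binds methylated histone H3, had -0.43 for ICD, -0.36 for ECD and -0.45 for Full, and its call was lost without Empty replicate 2 or 3, as was that of ITPRID2 (-0.42) without Empty replicate 1 or 2. The calls of RHOXF2B and C9orf85 were lost without Empty replicate 2 and without Empty replicate 3, those of SFR1 and GTF3C6 without Empty replicate 2, and those of TWF1 and SNRPE without any 1 of the 3 Empty arrays. With no detection filter the calls of RHOXF2B and TWF1 were lost.

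The list of surface peptidases and S100 calcium-binding proteins held 6 of the 17 lower calls counted over all lists, and histone genes 2. ANPEP, aminopeptidase N, lay at 5.50, 5.87 and 6.34 on construct arrays, against 6.47, 6.35 and 6.53 on Empty arrays (-0.55 ± 0.09, limma adjusted p = 0.0015). MME, the peptidase neprilysin, lay at 6.93, 7.45 and 7.77 with the constructs and at 7.84, 7.89 and 7.94 with Empty (-0.43 ± 0.09). Both were separated, though by little for ANPEP, where the highest construct array and the lowest Empty array were 6.34 and 6.35. S100A3, S100A4, S100A13 and S100A16 passed without separation (-0.60, -0.47, -0.51 and -0.51), and a second S100A4 probe gave 0.08. In all 6 of 16 tested genes were called lower and 1, CD44, higher (0.28, with 0.15 and 0.10 for its other probes), with a median of -0.28. Among all named genes 1.63% were called lower and 3.33% higher. Among 21 tested histone genes, H2AC6 and H2BC5 fell (-0.58 ± 0.10 and -0.47 ± 0.09) and H4C3 rose. The MME differences were -0.41 for ICD, -0.15 for ECD and -0.72 for Full, and its call, like that of H2BC5, was lost without Empty replicate 2 and without Empty replicate 3. CD44 kept its call in 6 of the 12 fits with 1 array left out, losing it without each Empty array, ICD replicate 1 and ECD replicates 1 and 2.

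Other lists gave few calls, beside shares of 3.33% higher and 1.63% lower over all named genes. None of 41 tested DNA replication genes and 0 of 41 cytosolic ribosomal protein genes were called by limma, nor were any of 18 NRF2 targets or 11 epithelial and mesenchymal genes. At an unadjusted p under 0.05 there were 7, 2, 2 and 3 of these, or 17.1%, 4.88%, 11.1% and 27.3%, beside 20.2% of all named genes. Mitosis genes gave 1 call of 47, TPX2, which was lower (-0.46) with -1.25 for ICD and 0.14 for ECD. Respiratory chain genes gave 1 lower call of 47, ATP5F1C (-0.25), and genes of cholesterol and fatty acid synthesis 1 of 27, TM7SF2 (-0.33). Heat shock genes gave 1 lower call of 14, HSF1 (-0.36). Among p53 targets 2 of 18 were higher, GADD45B (0.36) and PLK2 (below background with Empty), and TP53INP1 was lower (-0.35). Focal adhesion and actin genes had 3 higher calls of 45, TPM4, RHOB and RHOA (0.41, 0.29 and 0.27), beside ARPC3, which was lower. A second TPM4 probe had the other sign and was not called (-0.10). EGFR, the receptor of epidermal growth factor, was the only call among 17 semaphorins, plexins and receptor kinases (0.29 ± 0.08), and it kept that call in 3 of the 12 fits with 1 array left out. HSF1 kept it in 3, RHOB and ATP5F1C in 2, and GADD45B, TPM4 and TM7SF2 in 10, these last being lost without Empty replicate 2 or 3. MET lay at 8.14, 8.53 and 8.65 with the constructs, against 8.48, 8.29 and 8.36 with Empty, so the groups overlapped, and its difference of 0.07 was not called (limma adjusted p = 0.6).

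Separation has a sharp edge that single arrays set. MYC and TOR1AIP2 were just inside it, and the lowest construct array and the highest Empty array of MYC were 9.84 and 9.84. NCEH1 and HPS4 were just outside, with lowest construct arrays of 8.48 and 5.76 beside highest Empty arrays of 8.48 and 5.76. Among lower probes PNKD and PLEK2 were just inside and CACYBP and LRRC71 just outside. These 8 genes passed the test of the mean, as did 239 higher and 251 lower probes without separation in all. A second PNKD probe gave -0.0045, and 2 other CACYBP probes gave 0.09 and -0.31, none of them called. Each of the 8 calls was lost without Empty replicate 2, and those of TOR1AIP2, HPS4 and LRRC71 also without background correction. TOR1AIP2 kept its call in 1 of the 12 fits with 1 array left out, HPS4 in 2, LRRC71 in 3, and MYC, PNKD and PLEK2 in 9. Where a higher member past the test had another detected probe for its gene, it had the same sign for 57 of 66 genes (86.4%). Its median was 0.27 beside 0.44 for the probes used. For lower members past the test it was 32 of 38 genes (84.2%), with -0.26 beside -0.37. Of the members past the test, 84.6% of the higher and 70.5% of the lower ones had exactly 1 gene symbol, beside 76.4% of all detected probes.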

How the data were processed

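Expression was measured on 12 single-colour arrays. Per the labels' protocols, biotin-labelled RNA was made with an Illumina amplification kit; no source used here names the scanner software. The deposited table gives an intensity per probe and array on a linear scale, without subtraction of background as its values show, and a detection p-value that the authors' software set against negative controls. The authors also deposited log2 values, which equal quantile-normalized log2 intensities within 5e-09 and served as an alternative.

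The neqc function of limma (version 3.58.1, in R 4.3.3) subtracted background by normexp, added an offset of 16 and applied quantile normalization. Tested were probes whose detection p stayed below 0.05 throughout at least 1 group of 3 arrays. One moderated fit of 4 group means (residual degrees of freedom 8, prior 6.79, median SD 0.15) gave all contrasts, two-sided, adjusted by Benjamini-Hochberg over 18728 probes, with a threshold of 0.05. Background and offset shrink the differences of dim probes.

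For gene lists, the detected probe with the highest mean stood for a gene. Symbols came from the platform annotation (30113 probes with 1 symbol, 8 with several, 17202 with none), of which 30074 matched RefSeq genes of GRCh38.p14. Named are the 20 largest increases and 15 largest decreases, up to 4 members per list, the 6 most even in each direction, the 6 most uneven increases, the 2 genes inside and outside the edge of separation, SEMA5A, PLXNB3 and MET. The members, the 32 lists with 856 genes and this rule were chosen with earlier results of these data known. Other called list genes are given beside the counts they belong to and were named after their values were seen.

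On simulated data with 200 changed probes, 78% of 1.5-fold and 98% of 2-fold changes in the mean of the constructs were recovered, with 6 false calls among 18528 unchanged probes. Array pairs held 0 identical columns and 0 sample columns were unused. Same-numbered arrays of different groups had deviations correlated at -0.09 to 0.11, with 1 of 18 pairs over 0.1, so numbers were not taken as pairs. Alternatives covered the threshold, grouping, weights of arrays, the variance model, probe choice, the detection filter, scaling, offset, background, a replicate block and omission of each array. Plots used Python 3.11.15 and matplotlib 3.10.9.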

Additional observations from a re-analysis of the deposited data

How the results depend on the processing

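Across the alternatives, 54 of 89 called named genes kept their call in every fit with 1 array left out and 30 under every alternative tried, the 1.5-fold minimum and the threshold of 0.01 included. Of the called ones 0 changed sign, and MET, which was not called, had -0.00089 with the ECD arrays not averaged, in place of 0.07. Counts of probes moved more, and which probes were called moved with them: of 537 probes separated and called, 486 were shared with the 653 found without background correction, 451 with the 506 under median scaling and 479 with the 495 under the replicate block. With array weights 974 probes were called higher, 1146 lower and 4165 by the F test. With the 9 construct arrays as 1 group, which puts differences among constructs into the spread, 89 were called higher and 53 lower, of which 86 and 51 were separated. Averaging ICD and Full alone gave 256 higher and 240 lower, with 703 above and 681 below Empty, and averaging ECD and Full alone gave 328 and 182, with 143 lower ones separated and called. Averaging ICD and ECD alone gave 1174 higher and 1238 lower, with 1775 above and 1841 below, and 988 and 1065 separated and called. Lower calls numbered 822 without background correction, 823 on the authors' log2 values, 835 with an offset of 50, 774 with a trended and robust variance, and 335 with 1 probe a gene, where 167 were separated and called. At an adjusted p of 0.01, 216 were higher, 110 lower and 550 called by the F test, with 160 and 81 separated and called. At 1.5-fold or more there were 133 and 30, with 106 and 23 separated and called. Leaving out 1 array gave 222 to 629 higher and 109 to 659 lower calls, 493 to 843 probes above and 464 to 933 below Empty, 177 to 391 and 93 to 411 separated and called, and 1229 to 3627 by the F test. The Empty arrays carried the most weight: without Empty replicate 1 the calls numbered 324 and 280, without Empty replicate 2 223 and 109, and without Empty replicate 3 222 and 113. Under the replicate block 471 were called higher, 459 lower and 2586 by the F test, and it moved no count by over 1.5 times. Causes of these changes were not tested, apart from those the construction of an alternative gives. The number of arrays limits precision, and the 36 higher members past the test that were below background on every Empty array have bounds only.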

Other observations

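The following genes were chosen after their values were seen and are given as values only. Besides the interferon-stimulated genes, a few strongly raised members belong to other functions. REC8, a meiotic cohesin subunit, lay at 6.00, 7.02 and 7.36 on the 9 construct arrays (lowest, median and highest log2 intensity), against 5.34, 5.36 and 5.42 on Empty arrays, a difference of 1.44 ± 0.10. ADAP1, a GTPase-activating protein for ARF6, lay at 6.02, 6.24 and 6.78 with the constructs, against 5.05, 5.22 and 5.12 with Empty (1.23 ± 0.12). Neither overlapped Empty. The splicing regulator HNRNPL lay at 9.55, 10.34 and 10.59 with the constructs, against 9.35, 9.04 and 8.96 with Empty (1.14 ± 0.12), with ICD highest at 1.37, beside 1.27 for ECD and 0.78 for Full. SRGAP1, a GTPase-activating protein downstream of SLIT and ROBO guidance cues, had the same order, with 1.15 for ICD, 0.86 for ECD and 0.61 for Full. Other probes of REC8 and FGF2 were not separated, at 0.46 and 0.28, beside 1.44 and 0.78 for those used.

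ANKRD1, an ankyrin repeat protein of striated muscle, lay at 6.47, 6.95 and 7.20 with the constructs, against 5.55, 5.70 and 5.69 with Empty (1.26 ± 0.09). Small RNAs made by RNA polymerase III gave 4 members past the test among 12 tested genes, where 1.49% of all detected probes were separated and called higher. The group was put together after its values were seen, so nothing is read from this share. The vault RNA VTRNA1-1 rose by 0.84 ± 0.10, the 5S ribosomal RNA gene RNA5S9 by 0.76 ± 0.10, the Y RNA RNY4 by 0.61 ± 0.12 and SNAR-A1 by 0.55 ± 0.10. The other 8 were not called, with -0.05 for RN7SL1, 0.13 for RN7SK, 0.15 for RNY1, 0.16 for RNY3, 0.03 for RNY5, 0.20 for BCYRN1, 0.10 for RMRP and 0.18 for RPPH1. RNA5S9 and SNAR-A1 have near-identical copies, so their probes are uncertain. On the lower side, 3 of 9 tested genes of the X-linked families BEX and TCEAL were members by the probe used, BEX4 (-0.29), TCEAL3 (-0.32) and TCEAL8 (-0.31), where 1.38% of all detected probes were separated and called lower. This group too was chosen after its values were seen. The probes used for BEX1, BEX2, BEX3, TCEAL1, TCEAL4 and TCEAL9 were not called (-0.23, 0.04, -0.19, -0.33, -0.18 and -0.39). Probes of a gene disagreed in size, with second probes at -0.65 for BEX1 and -0.63 for TCEAL9 and 2 further TCEAL8 probes at -0.68 and -0.55 that were members, and a second TCEAL3 probe at -0.27 that was not called. SPP1, the matrix protein osteopontin, was a member by both probes (-0.48 and -0.59).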
